A study of Rattus norvegicus with 167 samples.

Results

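The 6 serotonin receptor genes Htr2c, Htr2a, Htr2b, Htr1b, Htr1d and Htr7 were followed in rat spinal cord after the cord had been cut across, the operation that parts the tissue below the cut from the brainstem neurons that supply it with serotonin. Each gene was read from the probe set with the highest mean over all arrays among those that carry a single gene symbol. They were 6 of 14217 genes read in this way. Only 3 of them (Htr2c, Htr2b and Htr7) passed a filter on low values and were tested, among 12040 genes. Htr2a, Htr1b and Htr1d lay below that filter in all 167 arrays. After injury Htr2c and Htr7 were lower and Htr2b was higher than in uninjured cord, on both sides of the cut and at the lesion site.

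Serotonin reaches the spinal cord almost wholly through axons that descend from the raphe nuclei of the brainstem, where it sets the excitability of motor neurons and of sensory relay circuits. Its receptors fall into families by the G protein they use. Htr2a, Htr2b and Htr2c couple to Gq, phospholipase C and calcium release. In motor neurons Htr2c and Htr2b are known for supporting persistent inward currents, and Htr2c for activity without serotonin after cord injury. Htr1b and Htr1d couple to Gi and Go and reduce transmitter release from nerve endings, among them those of primary sensory fibres, whereas Htr7 couples to Gs and raises cyclic AMP.

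The animals were adult female Wistar rats. The cord was transected completely at thoracic level T7/8 and a 5 mm segment was taken out. The gap received a 5 mm chitosan tube loaded with the neurotrophin NT-3 (NT3), an empty chitosan tube (ET), or nothing (lesion control, LC), so that every injured group, the lesion control included, carried the same gap. Pieces of 5 mm were collected directly rostral (headward) and directly caudal (tailward) of the gap in all 3 arms on days 1, 3, 10, 20, 30, 60 and 90. The lesion site itself was collected in LC and NT3 rats from day 3 to day 90, and in ET rats on day 3. Uninjured cord was represented by 3 arrays, for which the labels give no spinal level. There were 55 groups of 3 arrays and 1 group of 2, rostral ET on day 10. The labels do not say whether the arrays of a group came from separate animals or from pooled tissue, so p-values measure the spread between these arrays, which may be technical. A piece taken next to the cut holds many cell types, and in such bulk tissue fewer cells of a type and less RNA per cell cannot be told apart.

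Promoter sequences are shown for the 3 tested receptors, since the other members lay below the filter. Of the 6 members, 5 matched an entry of the RefSeq promoter table by symbol. Shown are the 250 bases before the RefSeq transcript start (rat build GRCr8), at chrX:115452940-115453189 (plus strand) for Htr2c, chr9:94204088-94204337 (minus strand) for Htr2b and chr1:243173049-243173298 (minus strand) for Htr7. They are written 5′ to 3′ along the gene, with a motif match in capitals.
Htr2c: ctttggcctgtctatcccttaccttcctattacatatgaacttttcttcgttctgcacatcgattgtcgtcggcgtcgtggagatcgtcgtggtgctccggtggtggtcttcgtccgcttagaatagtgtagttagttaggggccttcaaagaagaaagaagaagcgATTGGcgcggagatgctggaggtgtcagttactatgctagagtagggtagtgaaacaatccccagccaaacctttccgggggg
Htr2b: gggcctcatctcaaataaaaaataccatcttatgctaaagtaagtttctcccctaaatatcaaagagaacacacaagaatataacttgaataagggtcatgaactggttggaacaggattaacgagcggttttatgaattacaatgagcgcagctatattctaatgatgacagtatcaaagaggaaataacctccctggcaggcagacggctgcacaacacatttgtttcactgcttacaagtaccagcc
Htr7: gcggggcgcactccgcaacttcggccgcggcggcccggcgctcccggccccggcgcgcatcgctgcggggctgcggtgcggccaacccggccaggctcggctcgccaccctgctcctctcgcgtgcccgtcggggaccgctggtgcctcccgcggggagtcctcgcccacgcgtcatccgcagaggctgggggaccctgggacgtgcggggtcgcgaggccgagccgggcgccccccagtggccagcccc
Both strands were searched for 5 motifs. Of the 33469 promoters of this length 12.9% held TATAAA (the TATA box), 34% held CCAAT (the CCAAT box), 30.5% held GGGCGG (a GC box), 6.34% held TGANTCA (the AP-1 motif) and 1.59% held TGACGTCA (the cyclic AMP response element). The one match among these 3 genes was CCAAT in Htr2c, read on the opposite strand as ATTGG, at -83 from the start. The GC content was 50.4% for Htr2c, 39.6% for Htr2b and 80.8% for Htr7, against a median of 51.2% over all promoters. The 2 receptors that were lower after injury therefore had promoters of unlike base composition. Of the other members, Htr1b held 2 CCAAT matches and Htr1d 3 GGGCGG matches in the same window.

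Values are log2 expression as the authors deposited it, in which 1 unit is a doubling. Each array's median lay between 7.10 and 7.25, and a gene was tested when it stood above the 40th percentile of the array in at least 3 arrays. Differences were fitted with limma, and a gene was called changed at a Benjamini-Hochberg adjusted p under 0.05 over the 12040 genes tested. The days were joined into early (days 1 and 3), intermediate (days 10, 20 and 30) and late (days 60 and 90) periods. In all, 31 comparisons were made, 8 of which were chosen after the data had been seen. The cord pieces carried the markers of cord tissue: the mean of 9 neuron markers had a median of 12.73 in uninjured cord, 11.81 rostrally, 12.06 caudally and 9.45 at the lesion site. Of 5 oligodendrocyte markers the mean was 13.51, 12.98, 12.99 and 10.93 in the same order. The level of RT1-CE10, a class I histocompatibility gene, stood above 9 in every array of 17 groups, in none of 35 groups and in part of 4, in a pattern that crossed arms and days and left all uninjured arrays below.

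Htr2c, one of the receptors through which serotonin excites motor neurons, was lower in both cord pieces at every time. The uninjured arrays read 11.89, 11.52 and 11.65 (mean 11.69 ± 0.19 SD, n = 3). In the rostral piece of LC rats they read 10.67, 10.47 and 10.08 on day 1, 9.74, 10.38 and 9.71 on day 3, and 10.98, 10.65 and 10.84 on day 10. Day 3 was thus the lowest point, and no rostral array of any arm reached the uninjured range. The later LC arrays read 10.70, 10.42 and 10.61 on day 20, 10.63, 10.60 and 10.52 on day 30, 10.94, 10.87 and 10.97 on day 60 and 10.84, 10.89 and 10.72 on day 90, close to one another and all under uninjured cord. Against uninjured cord, rostral Htr2c fell by 1.51 early (SE 0.14, adjusted p = 1.56e-13, limma), by 1.03 at intermediate days (SE 0.13, adjusted p = 2.48e-09) and by 0.81 late (SE 0.14, adjusted p = 1.99e-06). Late LC cord thus held Htr2c at a level 1.76-fold lower than uninjured cord. In these 3 comparisons 67.7%, 60.5% and 53.6% of all tested genes were called, so a call here was common.

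In the caudal piece, the side cut off from the brainstem, Htr2c read 10.69, 10.99 and 10.49 on day 1 and 10.27, 10.49 and 10.05 on day 3 in LC rats. On day 10 it read 10.26, 11.23 and 10.37 and on day 20 10.86, 9.80 and 10.75, the widest spread of any caudal days in this arm. Day 30 gave 10.58, 10.67 and 10.90, day 60 10.51, 10.93 and 10.76, and day 90 10.58, 10.80 and 10.68. No caudal array of any arm overlapped the uninjured arrays. Caudal Htr2c fell by 1.19 early (SE 0.19, adjusted p = 4.63e-07, limma), by 1.09 at intermediate days (SE 0.18, adjusted p = 9.54e-07) and by 0.98 late (SE 0.19, adjusted p = 2.42e-05). The share of all tested genes called was 65%, 61.7% and 56.6%. Over all arrays the lowest, median and highest Htr2c levels were 9.71, 10.51 and 11.21 rostrally and 9.56, 10.75 and 11.35 caudally, so the ranges of the pieces overlapped.

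Htr7, the Gs-coupled receptor, was also lower in both pieces in each period. The uninjured arrays read 7.73, 7.67 and 7.84 (mean 7.75 ± 0.09 SD, n = 3). Rostral LC arrays read 7.08, 6.87 and 7.01 on day 1, 6.41, 6.79 and 6.53 on day 3, and 7.16, 6.82 and 6.76 on day 90. Caudal LC arrays read 7.23, 7.56 and 7.04 on day 1, 6.87, 6.76 and 6.69 on day 3, and 6.75, 6.97 and 7.02 on day 90. As with Htr2c, day 3 held the lowest LC mean in either piece, 6.58 rostrally and 6.78 caudally. Htr7 fell rostrally by 0.96 early (SE 0.11, adjusted p = 1.74e-10, limma), by 0.85 at intermediate days (SE 0.11, adjusted p = 1.66e-09) and by 0.82 late (SE 0.11, adjusted p = 2.59e-08). Caudally it fell by 0.72 (SE 0.15, adjusted p = 2.74e-05), 0.84 (SE 0.14, adjusted p = 6.66e-07) and 0.88 (SE 0.15, adjusted p = 1.34e-06) in the same order. In the LC and ET arms the injured and uninjured arrays did not overlap on any of the 7 days. In NT3 rats they overlapped on day 1 in both pieces, where the rostral arrays read 7.72, 7.37 and 7.40 and the caudal arrays 7.30, 7.77 and 7.48.

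Markers of neurons were lower in the same comparisons. In late LC cord 9 of 9 tested neuron markers fell, with a median difference of -0.66 rostrally and -0.45 caudally against -0.03 and -0.04 over all tested genes. Markers of oligodendrocytes fell too, 5 of 5 rostrally (median -0.50) and 4 of 5 caudally (median -0.54). Of 7 tested Hox genes that mark thoracic and lumbar position, 6 fell and 1 rose rostrally (median -1.24) and 5 fell caudally (median -0.75), while the spinal level of the uninjured cords is not given. RNA quality differed as well: the difference between the 3′ and 5′ probe sets of beta-actin was 1.72 ± 0.51 (SD, n = 3) in uninjured cord, against arm means of 0.93 to 1.07 in the rostral and caudal pieces. The part of these values in the lower Htr2c and Htr7 levels was not tested.

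Htr2b was the member that was higher after injury. The uninjured arrays read 4.57, 4.82 and 4.88 (mean 4.76 ± 0.16 SD, n = 3), and none of them stood above the 40th percentile of its array. Htr2b thus passed the filter only through injured cord, where 42 of 62 rostral, 30 of 63 caudal and 31 of 39 lesion site arrays stood above that line, so its being higher there follows in part from the filter. With no detection call for this probe set in the values, the uninjured level is best read as a level under that line. Rostral LC arrays read 5.41, 5.78 and 5.64 on day 1 and 7.48, 6.83 and 7.18 on day 3, a step up that the caudal LC arrays shared, with 5.53, 5.65 and 5.39 on day 1 and 6.88, 6.85 and 7.26 on day 3. At day 30 they read 5.70, 6.67 and 6.78 rostrally and 6.14, 6.22 and 6.21 caudally. At day 60 they read 7.29, 7.48 and 7.33 rostrally and 6.93, 7.36 and 7.18 caudally, all above the day 30 arrays of their own piece. Every injured group lay above the uninjured arrays without overlap. The rostral difference was 1.63 early (SE 0.27, adjusted p = 8.55e-07, limma), 1.89 at intermediate days (SE 0.26, adjusted p = 1.35e-08) and 2.54 late (SE 0.27, adjusted p = 5.19e-11). The caudal difference was 1.50 (SE 0.34, adjusted p = 0.000162), 2.12 (SE 0.32, adjusted p = 1.77e-07) and 2.37 (SE 0.34, adjusted p = 8.02e-08) in the same order. With each uninjured array set to its own 40th percentile (mean 6.53), a bound added after the data had been seen, the difference was at least 0.13 rostrally and 0.35 caudally at intermediate days, and at least 0.77 and 0.61 late. Early the LC mean of 6.39 rostrally and 6.26 caudally lay under that line too, so no size can be given for that period.

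Some LC groups held Htr2b arrays that lay far apart. On day 10 the rostral LC arrays read 5.63, 8.11 and 7.55 and the caudal ones 6.32, 6.57 and 8.72, and on day 20 the caudal ones read 6.28, 8.81 and 6.62. The arrays at 8.11, 8.72 and 8.81 were the highest of their pieces. Their mean over 6 fibroblast and meninges markers was 13.32, 12.61 and 12.29, where the rostral range was 10.13 to 13.32 and the caudal range 9.62 to 12.64. Over 6 microglia and macrophage markers the same mean was 10.55 and 10.53 in the 2 caudal arrays, at the top of the caudal range of 8.73 to 10.55. In the rostral array it was 10.28, where the highest rostral array had 10.33. Other lists stood out too. The day 10 caudal array was the lowest of its piece in neuron markers (11.44) and Hox genes (7.59), and the day 20 caudal array in oligodendrocyte markers (12.59). Macrophage markers rose with injury as a list, 6 of 6 late in each piece with a median of 1.57 rostrally and 1.73 caudally, and fibroblast markers rose in 6 of 6 rostrally (median 1.78) and 5 of 6 caudally (median 1.23). The only tested mast cell marker did not pass the test late in either piece. The part of these cells in the Htr2b level was not tested.

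**Figure D1:**
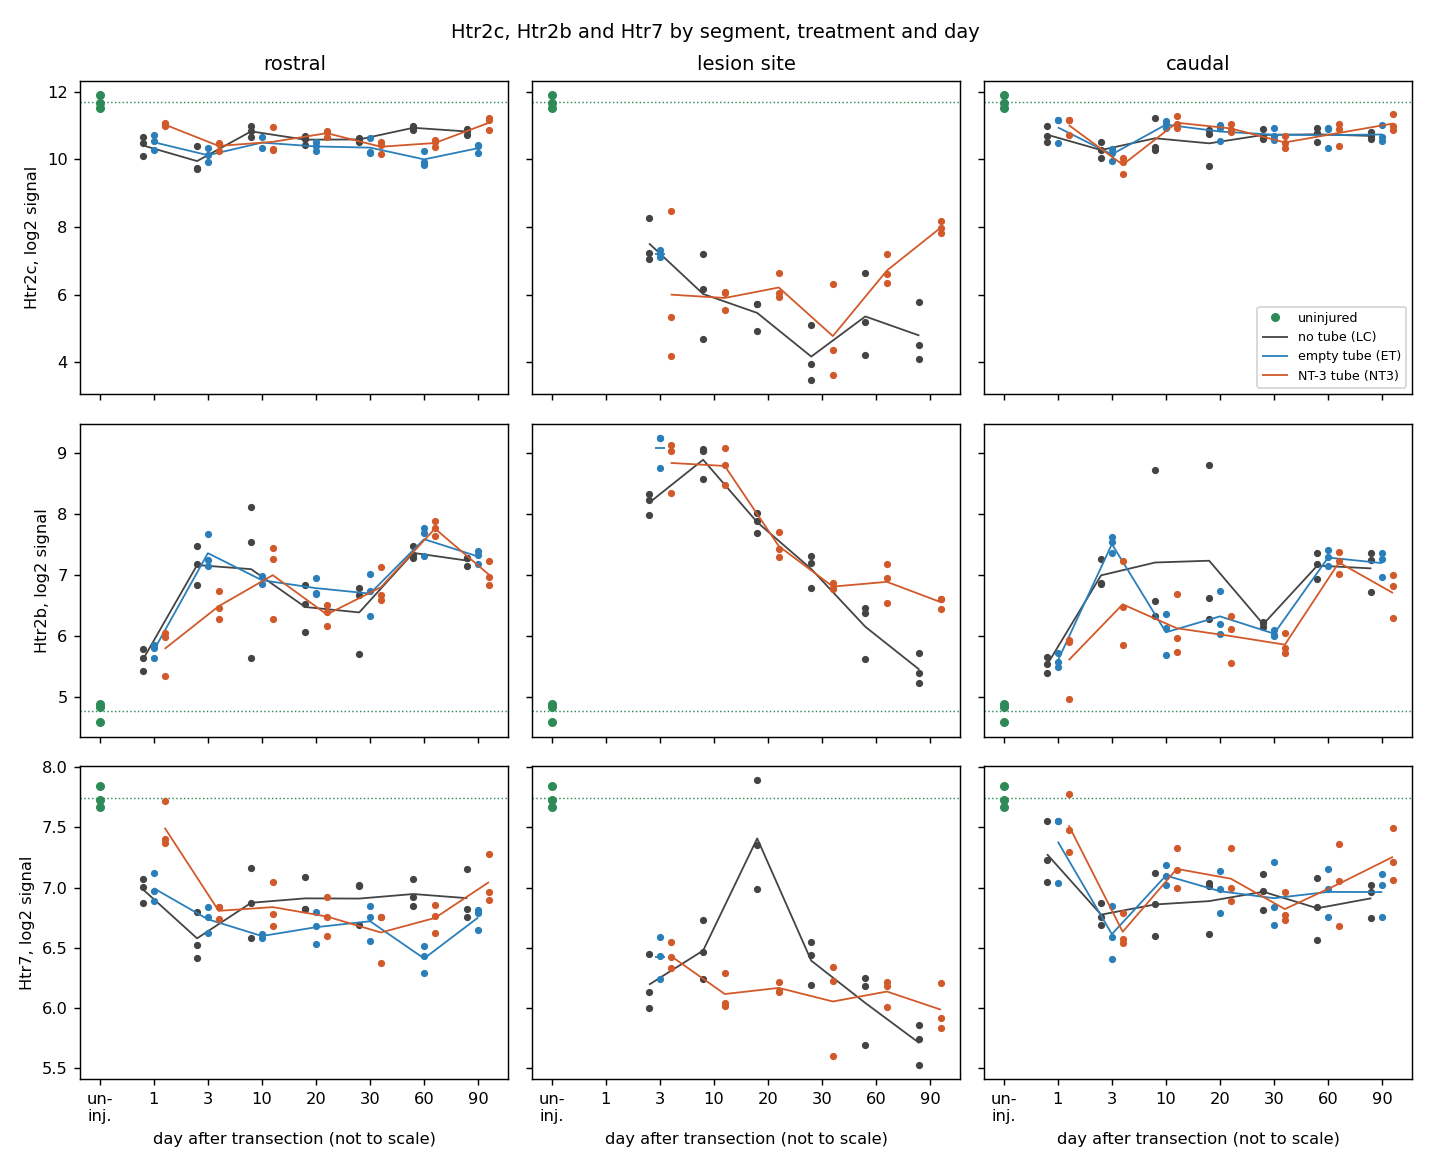
Log2 expression of Htr2c, Htr2b and Htr7 (rows) by day after injury in the rostral piece, the lesion site and the caudal piece (columns). Each point is 1 array, lines join the means of an arm, and green points with a dotted line give the 3 uninjured arrays and their mean, with every Htr2c point of injured cord below and every Htr2b point above them.

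At the lesion site the same directions held with other sizes. Htr2c in LC rats read 8.26, 7.04 and 7.23 on day 3, 7.19, 4.70 and 6.15 on day 10, 3.48, 5.09 and 3.94 on day 30, and 4.10, 4.50 and 5.76 on day 90. All lay far below the lowest uninjured array at 11.52, and 15 of the 39 lesion site arrays of all arms stood above the 40th percentile. On day 3, when all 3 LC arrays stood above that line, Htr2c fell by 4.18 (SE 0.73, adjusted p = 5.58e-06, limma), and 74.4% of all tested genes were called. The fitted difference was -6.47 at intermediate days (SE 0.59, adjusted p = 1.29e-11; 79% called) and -6.62 late (SE 0.63, adjusted p = 3.82e-11; 75.4% called). Only 1 of 9 LC arrays at intermediate days and 1 of 6 late stood above the line, so these are better read as bounds: with the lower arrays set to their 40th percentile, Htr2c was lower by at least 5.08 at intermediate days and at least 5.15 late. Neuron markers were called lower in 9 of 9 at intermediate days, with a median of -4.45, and in 9 of 9 late, with a median of -3.49, and the part of this in the Htr2c level was not tested.

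Htr2b at the lesion site had a peak and a decline. LC arrays read 7.99, 8.34 and 8.23 on day 3 and 8.58, 9.04 and 9.06 on day 10. They then read 8.02, 7.70 and 7.89 on day 20, 7.20, 7.31 and 6.79 on day 30, 5.62, 6.38 and 6.45 on day 60 and 5.23, 5.39 and 5.71 on day 90, with no overlap between any of the neighbouring days from 10 to 60. The fitted difference from uninjured cord was 3.43 on day 3 (SE 0.21, adjusted p = 1.59e-15, limma), 3.2 at intermediate days (SE 0.17, adjusted p = 2.95e-17) and 1.04 late (SE 0.18, adjusted p = 7.37e-06). No uninjured array stood above its 40th percentile, so these sizes are better read as bounds. With the uninjured arrays set to that line the difference was at least 1.66 on day 3 and at least 1.43 at intermediate days. Late, 0 of 6 LC arrays stood above that line, so both groups were low and the late difference has no size that can be relied on. On day 3, the 1 day on which all 3 arms were collected at the lesion site, ET arrays read 9.26, 9.25 and 8.76 and NT3 arrays 8.35, 9.14 and 9.04. The LC arrays of that day lay below all of these.

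Htr7 at the lesion site fell by 1.55 on day 3 (SE 0.18, adjusted p = 4.61e-09, limma), by 0.99 at intermediate days (SE 0.15, adjusted p = 4.65e-07) and by 1.87 late (SE 0.16, adjusted p = 2.55e-12). On day 3 and late no LC array stood above the 40th percentile, and with these arrays set to that line Htr7 was lower by at least 1.23 and 1.22. Day 20 stood apart in LC rats, with arrays at 7.89, 7.35 and 6.98, against 6.24, 6.73 and 6.46 on day 10 and 6.44, 6.20 and 6.55 on day 30. The highest of them lay above the 3 uninjured arrays. NT3 arrays of the same day read 6.14, 6.14 and 6.22, below every LC array. The neuron marker mean of the 3 LC arrays was 8.25, 7.86 and 7.69, near the foot of the lesion site range of 7.69 to 11.62. By day 90 the LC arrays had reached 5.74, 5.86 and 5.53.

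The late period was set against the intermediate one in 4 comparisons added after the data had been seen. Htr2b rose from intermediate to late days next to the lesion, by 0.66 over the 3 arms rostrally (SE 0.12, adjusted p = 1.82e-05, limma; 37.5% of all tested genes called) and by 0.77 caudally (SE 0.15, adjusted p = 3.66e-05; 44.5% called). Htr2c (0.07 and 0.02) and Htr7 (0.03 and 0.02) were not called in either. The caudal Htr2b mean at intermediate days, 6.34, lay under the 40th percentile of the caudal arrays (6.52 to 6.60). The caudal rise thus has no size that can be relied on, and no bound was run for it. Over the same periods fibroblast markers fell in 5 of 6 rostrally and 6 of 6 caudally, and macrophage markers rose in 1 and fell in 4 of 6 rostrally. The caudal macrophage count is not given here, and the part of these markers in the Htr2b rise was not tested. At the lesion site of LC rats Htr2b fell by 2.16 (SE 0.14, adjusted p = 7.24e-14) and Htr7 by 0.88 (SE 0.12, adjusted p = 3.13e-07), while Htr2c differed by -0.14 (adjusted p = 0.833), with 45% of all genes called. At the lesion site of NT3 rats Htr2b fell by 0.97 (SE 0.14, adjusted p = 1.19e-06) and Htr2c rose by 1.72 (SE 0.47, adjusted p = 0.00358), with 45% called. With low arrays set to their 40th percentile, the lesion site differences were at least 1.43 for Htr2b and 0.23 for Htr7 in LC rats, and at least 0.95 for Htr2b and 0.79 for Htr2c in NT3 rats. Between these periods Htr2b was thus higher late next to the gap and lower late within it, but the course over all days did not run one way. The caudal ET mean was 7.51 on day 3, 6.04 on day 30 and 7.20 on day 90, and the lesion site LC mean was 8.19 on day 3 and 8.90 on day 10.

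Htr2a, Htr1b and Htr1d gave low values in every array. Htr2a, a Gq-coupled receptor that excites motor neurons, read 5.73, 5.52 and 5.70 in uninjured cord and ranged from 4.96 to 5.81 over all arrays. Htr1b ranged from 4.57 to 5.39, with 5.00, 4.85 and 4.93 in uninjured cord. Htr1d ranged from 4.71 to 5.77, with 5.19, 5.21 and 5.77 in uninjured cord. None cleared the 40th percentile on even 1 array, so these probe sets gave no level that could be told from the low end of the array. When the filter was dropped and 14217 genes were tested, Htr2a was lower in the rostral piece early (-0.25, adjusted p = 0.0299, limma) and at the lesion site at intermediate days (-0.24, adjusted p = 0.0422). Htr1d was then lower early in the rostral (-0.33, adjusted p = 0.0212) and caudal piece (-0.30, adjusted p = 0.0178), and Htr1b was called in no comparison. The SD within groups was 0.14 for Htr2a and 0.19 for Htr1d, and the Htr1d differences rest in part on the uninjured array at 5.77. The share of all genes called without the filter is not given. With the filter, 67.7% were called rostrally early, 65% caudally early and 79% at the lesion site at intermediate days, so a call was common.

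**Figure D2:**
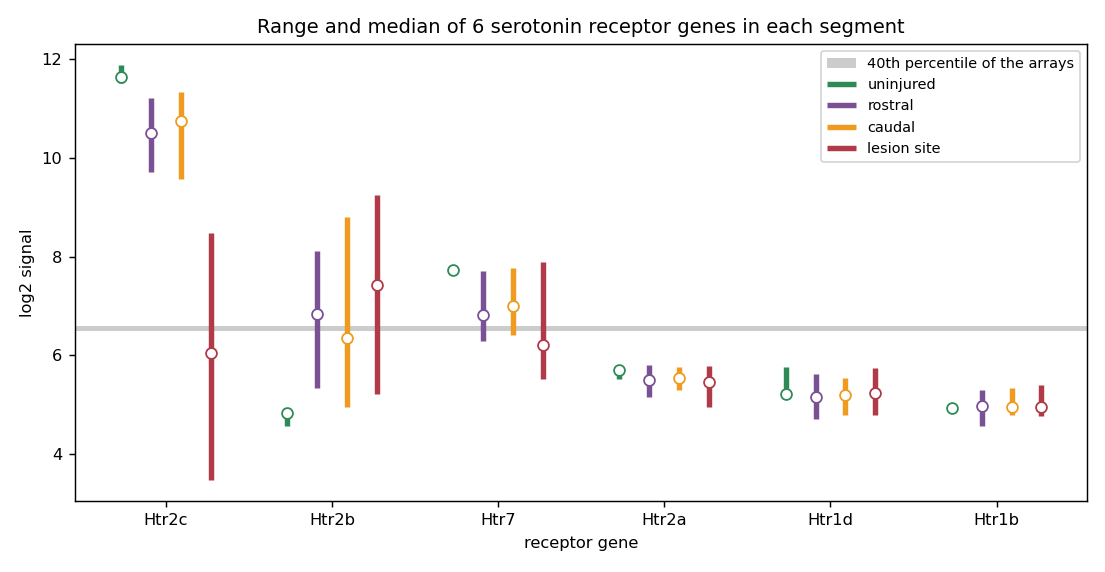
Lowest to highest log2 expression (bars) and median (points) of each of the 6 receptors in uninjured cord, the rostral piece, the caudal piece and the lesion site, with the 40th percentile of the arrays as a grey band. Htr2a, Htr1b and Htr1d lie under the band in every segment, and levels of different genes come from different probe sets and are not to be compared with each other.

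Whether the receptors differed by the side of the cut was asked next, since serotonin axons from the brainstem still reach the rostral piece and not the caudal one. In LC rats the sides were not told apart early or late. Rostral minus caudal, Htr2c differed by -0.32 early (95% interval -0.60 to -0.05, adjusted p = 0.193, limma) and by 0.16 late (interval -0.11 to 0.44, adjusted p = 0.597). Htr2b differed by 0.13 (adjusted p = 0.816) and 0.17 (adjusted p = 0.801), and Htr7 by -0.24 (adjusted p = 0.205) and 0.06 (adjusted p = 0.836). No member was called, with 2.49% of all genes called early and 1.16% late. The change of the side difference from early to late was 0.48 for Htr2c (interval 0.09 to 0.87, adjusted p = 0.102), 0.30 for Htr7 (adjusted p = 0.187) and 0.04 for Htr2b (adjusted p = 0.958), with 6% of all genes called. On single days the LC sides overlapped for all 3 genes throughout.

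Over the 3 arms together all 3 tested members were called at intermediate days, where 17% of all genes were. Htr2c was 0.22 lower (SE 0.07, adjusted p = 0.0113, limma) and Htr7 0.20 lower (SE 0.05, adjusted p = 0.00234) in the rostral piece, and Htr2b was 0.39 higher there (SE 0.12, adjusted p = 0.021). Late, where 18.3% were called, Htr7 was 0.19 lower rostrally (SE 0.06, adjusted p = 0.0221), while Htr2c differed by -0.18 (adjusted p = 0.11) and Htr2b by 0.27 (adjusted p = 0.22). Early, with 0.424% called, the differences were -0.09 for Htr2c, 0.07 for Htr2b and -0.10 for Htr7, none called, and none was called for the change from early to late (5.37% of genes; Htr2c -0.09, Htr2b 0.19, Htr7 -0.09). For Htr2c and Htr7 the side differences were thus several times smaller than the LC differences from uninjured cord. For Htr2b this cannot be said. Its difference from uninjured cord at intermediate days was bounded only at 0.13 rostrally and 0.35 caudally. No such bound was run for the side difference of 0.39. The caudal Htr2b mean in that comparison, 6.34, lay under the filter line of the caudal arrays (6.52 to 6.60). The 0.39 thus has no size that can be relied on and cannot be set against those bounds. On single days of the ET arm rostral Htr2c lay below caudal Htr2c on 7 of 7 days, 4 of them without overlap, against 3 of 7 days in LC and 4 of 7 in NT3, where the sides overlapped on each such day. How many of all genes did so is not given, so nothing is read from these counts.

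Several of these calls were lost when the arrays of 1 arm, day and number were left out. Leaving out both day 10 LC arrays numbered 2 took Htr2c at intermediate days to -0.18 (adjusted p = 0.0542, limma) and Htr2b to 0.29 (adjusted p = 0.102). Htr2b was also lost without the day 20 LC arrays numbered 1 (0.31, adjusted p = 0.0787) and without the day 10 NT3 arrays numbered 2 (0.34, adjusted p = 0.057). The late Htr7 call was lost in 6 of 18 such cases, with values from -0.23 to -0.16 over all 18: without the day 60 NT3 arrays numbered 1 or 3, the day 90 NT3 arrays numbered 2, the day 60 ET arrays numbered 2, and the LC arrays numbered 2 on day 60 and 3 on day 90. It stayed called in 7 of 9 alternatives of processing and fit, with adjusted p up to 0.0518. Neuron markers were lower rostrally in 7 of 9 at intermediate days (median -0.25) and in 7 of 9 late (median -0.27). Fibroblast markers were higher rostrally in 6 of 6 in both periods (medians 0.68 and 1.00), and Hox genes were lower in 4 and higher in 1 of 7 at intermediate days. The part of these in the side differences was not tested. With both Htr2c probe sets averaged the intermediate difference was -0.12 (adjusted p = 0.15), and with all 167 arrays in one fit it had adjusted p = 0.328.

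**Figure D3:**
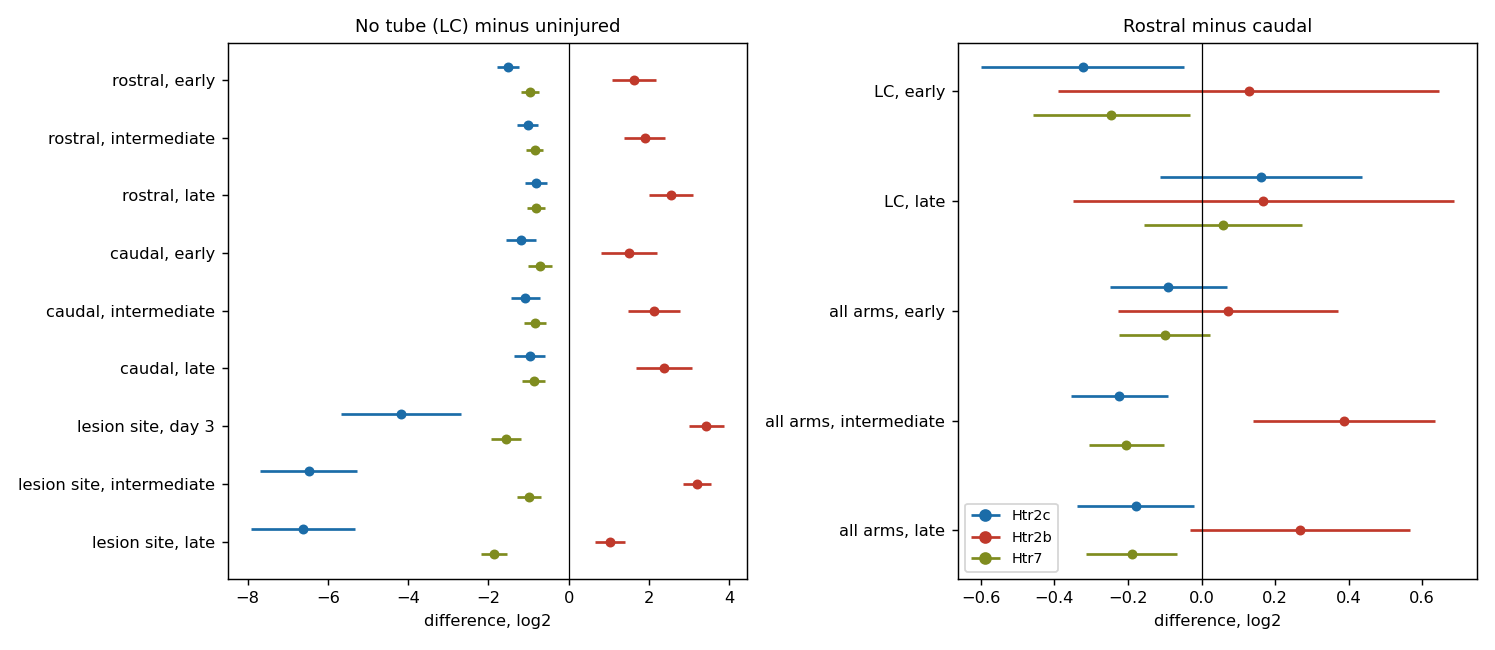
Log2 differences of Htr2c, Htr2b and Htr7 with 95% intervals (bars). The left panel gives lesion control minus uninjured cord by piece and period, with Htr2c and Htr7 below 0 and Htr2b above 0 throughout, and the right panel gives rostral minus caudal, where most intervals lie near 0.

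The arms were compared over the 7 days within each piece. Rostrally, no tested member was called between NT3 and LC rats (Htr2c 0.08, 95% interval -0.04 to 0.20, adjusted p = 0.497; Htr2b -0.02, adjusted p = 0.941; Htr7 0.03, adjusted p = 0.772, limma), and 2.77% of all genes were called. Rostral ET rats had lower Htr2c than LC rats by 0.28 (SE 0.06, adjusted p = 0.00077) and lower Htr7 by 0.18 (SE 0.05, adjusted p = 0.00783), with 22.8% called. They also had lower levels than NT3 rats, by 0.35 for Htr2c (SE 0.06, adjusted p = 2.11e-05) and 0.21 for Htr7 (SE 0.05, adjusted p = 0.00132), with 30.2% called. Htr2c was higher in NT3 than in ET on 7 of 7 days, 4 of them without overlap, and Htr7 on 6 of 7 days, 4 without overlap. The share of all genes with such counts is not given, so nothing is read from them. The ET minus LC gap was widest on day 60 (-0.93), where rostral Htr2c read 10.25, 9.90 and 9.83 in ET rats and 10.94, 10.87 and 10.97 in LC rats. NT3 rats read 10.49, 10.58 and 10.36 on that day. RT1-CE10 then stood above 9 in all rostral ET arrays and in no LC or NT3 array, so arm and RT1-CE10 class cannot be told apart there. Htr2b was called in neither rostral ET comparison (0.15 against LC, NT3 minus ET -0.17). These 3 comparisons share their groups in pairs and are not independent. When all 167 arrays were fitted together, the lesion site included, the same Htr2c differences had adjusted p = 0.211 for ET minus LC and 0.0869 for NT3 minus ET.

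Caudally, Htr2b was lower in NT3 than in LC rats by 0.49 (SE 0.15, adjusted p = 0.0302, limma), with 9.76% of all genes called, and over all caudal days the lowest, median and highest levels were 4.96, 6.11 and 7.37 in NT3 and 5.39, 6.71 and 8.81 in LC. The arms overlapped on all but 1 of the 7 days. The call was lost in 7 of the 42 cases of leaving out 1 array, with values from -0.56 to -0.37 over all 42: without LC day 3 array 3, day 10 array 3 (-0.38) or day 20 array 2 (-0.37), and without NT3 day 1 array 2, day 3 array 1, day 20 array 2 or day 90 array 2. The 2 LC arrays that moved it most were those with Htr2b at 8.72 and 8.81. Htr2c (0.13, adjusted p = 0.316) and Htr7 (0.14, adjusted p = 0.149) were not called between NT3 and LC. No member was called between ET and LC (Htr2c 0.12, Htr2b -0.20, Htr7 0.06; 3.5% of genes called) or between NT3 and ET (0.01, -0.28 and 0.08; 8.38% called).

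Whether an arm's difference was itself unlike on the 2 sides was tested in 3 comparisons added after the data had been seen. The ET minus LC difference was lower rostrally than caudally by 0.40 for Htr2c (SE 0.11, adjusted p = 0.0074, limma) and by 0.23 for Htr7 (SE 0.08, adjusted p = 0.0477), with 12.4% of all genes called, and differed by 0.36 for Htr2b (adjusted p = 0.247). The Htr7 call was lost in 26 of 42 cases of leaving out the arrays of 1 arm, day and number, with values from -0.27 to -0.20, and it stayed called in 4 of 9 alternatives of processing and fit. The Htr2c call stayed in 9 of 11 such alternatives. The NT3 minus LC difference was not called between sides for any member (Htr2c -0.06, Htr2b 0.47, Htr7 -0.11; 0.108% called), nor was NT3 minus ET (0.34, 0.11 and 0.12; 0.565% called). Htr2c in that last comparison had an adjusted p of 0.0928 and was called in 2 of 42 cases of leaving out such arrays.

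Cell type markers differed between the rostral arms as well. In ET against LC, 7 of 9 neuron markers were lower (median -0.25 against -0.03 over all genes) and 6 of 6 fibroblast markers higher (median 0.77). In NT3 against ET, 9 of 9 neuron markers were higher (median 0.29) and 6 of 6 fibroblast markers lower (median -0.61). On day 60 the neuron marker mean ranged from 11.32 to 11.64 in ET, from 12.08 to 12.17 in LC and from 11.79 to 11.98 in NT3 rats. In the test between sides, ET minus LC was lower rostrally in 4 of 9 neuron markers. The part of these in the receptor differences was not tested. RT1-CE10 stood above 9 in LC on days 1, 30 and 90, in ET on days 1, 30 and 60, and in NT3 on day 30 alone. On the days when the arms were alike in that gene, rostral ET minus LC was -0.17 for Htr2c (adjusted p = 0.245, limma) and -0.17 for Htr7 (adjusted p = 0.128), rostral NT3 minus ET was 0.12 for Htr7 (adjusted p = 0.166), and caudal NT3 minus LC was -0.65 for Htr2b (adjusted p = 0.062), so none of these was called with the fewer groups. Rostral NT3 minus ET for Htr2c stayed called on such days.

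**Figure D4:**
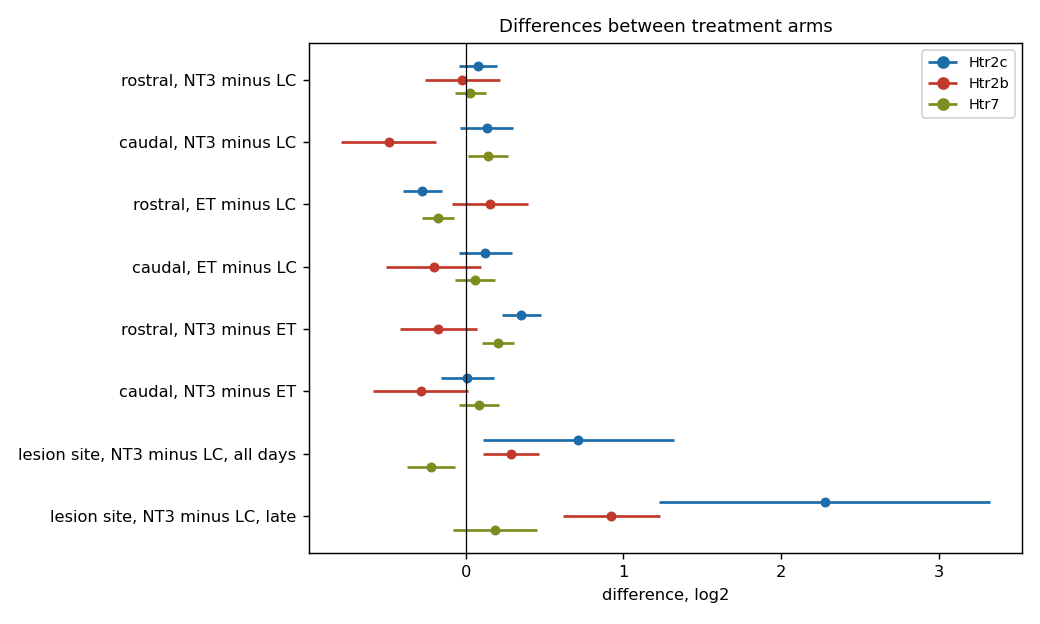
Log2 differences between arms with 95% intervals (bars) for Htr2c, Htr2b and Htr7, in the rostral piece, the caudal piece and the lesion site. Rostral Htr2c and Htr7 lie below 0 for ET minus LC and above 0 for NT3 minus ET, and the caudal intervals of Htr2c include 0.

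At the lesion site NT3 rats differed from LC rats in Htr2b (0.29 higher, SE 0.09, adjusted p = 0.00834, limma) and Htr7 (0.22 lower, SE 0.07, adjusted p = 0.017) over the 6 days collected, with 41.9% of all genes called. Htr2c was 0.71 higher without passing the test (SE 0.30, adjusted p = 0.053). It passed in 8 of 36 cases of leaving out 1 array (NT3 day 3 array 2 or 3 or day 30 array 2, LC day 3 array 1, day 10 array 1, day 30 array 2, day 60 array 2 or day 90 array 3), with values from 0.51 to 0.86 over all 36. On the days alike in RT1-CE10 the values were 0.12 for Htr2b (adjusted p = 0.507) and -0.20 for Htr7 (adjusted p = 0.152). For Htr7 4 of 18 LC arrays and 1 of 18 NT3 arrays stood above the 40th percentile, and for Htr2c 5 and 7 of 18, so neither difference has a size that can be relied on. The largest Htr7 difference of a single day was on day 20, where the mean was 7.41 in LC and 6.17 in NT3. Over the 6 days NT3 was higher on 3 and lower on 3. The days alike in RT1-CE10 did not include day 20.

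The late days were then compared alone, a comparison added after the data had been seen. Lesion site Htr2c in NT3 rats read 6.33, 6.61 and 7.19 on day 60 and 7.81, 8.17 and 7.96 on day 90, while LC rats read 5.19, 6.64 and 4.22 on day 60 and 4.10, 4.50 and 5.76 on day 90. On day 90 the lowest NT3 array lay above the highest LC array, and on day 60 the arms overlapped. Htr2c was 2.28 higher in NT3 rats (SE 0.51, 95% interval 1.23 to 3.33, adjusted p = 0.000883, limma), and 37.7% of all genes were called. In LC rats 1 of 6 of these arrays stood above the 40th percentile, so the fold is a bound: with the lower arrays set to that line Htr2c was at least 1.75-fold higher in NT3 rats. The NT3 arrays of day 90 still lay below every uninjured array. Htr2b was 0.92 higher (SE 0.15, adjusted p = 2.43e-05), with NT3 arrays at 6.45, 6.60 and 6.61 and LC arrays at 5.23, 5.39 and 5.71 on day 90, or at least 0.19 higher with the LC arrays at that line, and Htr7 differed by 0.19 (adjusted p = 0.268).

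Other cell type markers moved with the late lesion site difference. Of the neuron markers, 9 of 9 were higher in NT3 rats, with a median of 2.09 against -0.06 over all tested genes. Their mean per array ranged from 7.81 to 10.29 on day 60 and from 8.36 to 9.45 on day 90 in LC rats, and from 9.89 to 11.30 and from 10.87 to 11.62 in NT3 rats. Markers of oligodendrocytes (5 of 5, median 1.15), dorsal root ganglion neurons (4 of 4, median 1.52) and skeletal muscle (4 of 5, median 2.76) were higher too. RT1-CE10 stood above 9 in all LC arrays and in no NT3 array on day 90. On day 60 alone, when the arms were alike in that gene, Htr2c differed by 1.36 (adjusted p = 0.162, limma). The part of each of these in the Htr2c difference was not tested, and on day 90 arm and RT1-CE10 class cannot be told apart.

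**Figure D5:**
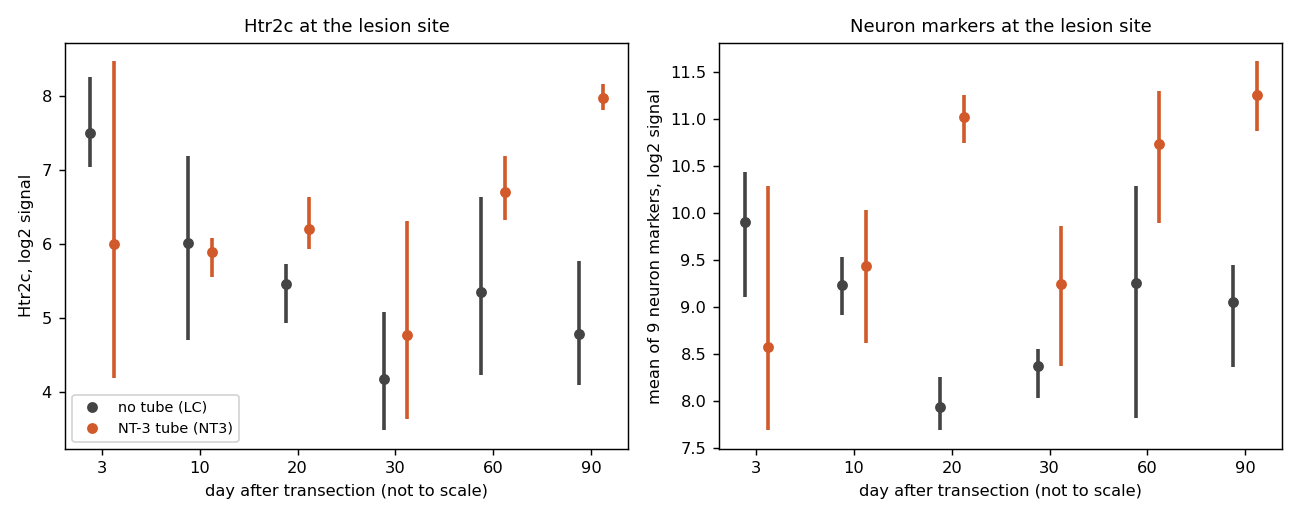
Lesion site levels by day in lesion control and NT3 rats, as mean (points) and lowest to highest array (bars). The left panel gives log2 Htr2c and the right panel the mean log2 level of 9 neuron markers, and in both the NT3 arrays of day 90 lie above the LC arrays.

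The other parts of the serotonin system were described from gene lists, for LC against uninjured cord at late days unless stated otherwise. Of all tested genes 24.9% rose and 28.7% fell rostrally, 25.2% rose and 31.5% fell caudally, and 40.4% rose and 35% fell at the lesion site. The counts of each list are to be read against these shares. Of 8 further serotonin receptors only the ion channel subunits Htr3a and Htr3b were tested, and neither was called rostrally, caudally or at the lesion site. Both were higher at the late lesion site of NT3 than of LC rats, Htr3a by 0.87 (SE 0.22, adjusted p = 0.00241, limma) and Htr3b by 0.52 (SE 0.16, adjusted p = 0.00979). Htr1a, Htr1f, Htr4, Htr5a, Htr5b and Htr6 were not tested, since they did not pass the filter. Of the 10 genes for making, storing, taking up and breaking down serotonin, 7 were tested, while the serotonin-making enzymes Tph1 and Tph2 and the vesicle transporter Slc18a1 were not.

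Rostrally 3 of these 7 rose and 2 fell (median 0.23 against -0.03 over all tested genes), where 53.6% of all genes were called in either direction. Gch1, which makes the cofactor of the serotonin-making enzymes, rose by 1.94 (SE 0.17, adjusted p = 3.09e-13, limma), and the breakdown enzymes Aldh2 and Maob rose by 0.94 and 0.76. Ddc, which makes serotonin from its precursor, fell by 0.40 (SE 0.13, adjusted p = 0.00998), and so did the vesicle transporter Slc18a2 (-0.40, SE 0.15, adjusted p = 0.0196). Caudally the same 3 genes rose, Gch1 by 2.13, Aldh2 by 1.10 and Maob by 0.83, and none fell (median 0.24 against -0.04), with Ddc at -0.19 and Slc18a2 at -0.16. The serotonin uptake carrier Slc6a4 was -0.13 rostrally and -0.07 caudally, not called, and rose by 0.92 at the lesion site (SE 0.20, adjusted p = 0.000129). There Ddc fell by 2.66 and Aldh2 rose by 1.51, with 2 of 7 up and 1 down (median -0.04 against 0.06), a smaller share than the 75.4% called over all genes. In NT3 against LC rats at the late lesion site, Ddc (0.82) and Maob (0.63) were higher and Aldh2 (-0.25) lower, and Maoa was called in none of these 4 comparisons.

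The signalling partners of the receptors were counted by pathway, with no test between the pathways. Of 11 tested genes of the Gs pathway that Htr7 feeds, 9 fell rostrally (median -0.52) and 9 caudally (median -0.62), and none rose, against 28.7% and 31.5% of all genes that fell. Among them were the adenylyl cyclase Adcy3 (-0.75 rostrally, -0.80 caudally) and the phosphodiesterase Pde4d (-0.75 rostrally), and at the lesion site, with 9 down and 1 up (median -1.28), the cyclase Adcy8 (-2.41). The 11 tested genes of the Gq pathway of the Htr2 receptors were divided, with 3 up and 4 down rostrally (median 0.05), 4 and 4 caudally (median 0.07) and 5 and 2 at the lesion site (median -0.03), near the 53.6%, 56.6% and 75.4% called over all genes. The phospholipase Plcb1 fell by 0.64 rostrally and by 2.06 at the lesion site, while its relative Plcb3 rose by 0.52 and 1.53. Of 6 tested genes of the Gi and Go pathway, 1 rose and 3 fell in either piece (medians -0.45 and -0.46), and 2 rose and 4 fell at the lesion site (median -2.26), with the called share in the cord pieces again near that of all genes. The potassium channel Kcnj6 (-1.10 rostrally, -3.75 at the lesion site) and the G protein Gnao1 (-2.96 there) fell, and Gnai2 rose by 0.92 rostrally.

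Of 8 genes that edit receptor RNA or bind the receptors, 1 rose and 3 fell in the rostral and in the caudal piece (median -0.17 in each), and 1 rose and 4 fell at the lesion site (median -0.27), no more than the 53.6%, 56.6% and 75.4% called over all genes. Adarb1, which edits Htr2c RNA, fell by 0.61 rostrally (SE 0.10, adjusted p = 5.08e-07, limma) and was at -2.51 at the lesion site (SE 0.16, adjusted p = 2.94e-15). S100a10, which binds Htr1b, rose by 0.94 rostrally and by 1.83 at the lesion site. Receptors for other transmitters of descending axons were counted in the same way. Of 6 tested receptors for noradrenaline and dopamine, 3 fell rostrally (median -0.43), with Drd2 at -0.80, Adra1d at -0.64 and Adra2c at -0.56, and 4 fell and 1 rose caudally (median -0.50), against 28.7% and 31.5% of all genes that fell. Of 5 tested receptors for descending peptides, 3 fell on either side: the orexin receptor Hcrtr2 (-1.34 rostrally, -1.48 caudally), the thyrotropin-releasing hormone receptor Trhr (-0.99 and -1.13) and the substance P receptor Tacr1 (-0.59 and -0.56). At the lesion site 4 of the 5 fell, Trhr among them (-4.07), against 35% of all genes. These lists hold 5 and 6 tested genes, and nothing is read from their counts. All these counts share the 3 uninjured arrays with the receptor comparisons above.

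The genes whose group means were most like those of each receptor were found over the 42 rostral and caudal groups and uninjured cord, as a description of groups that share arrays and tissue. For Htr2c they were Dnajc6 (Pearson r 0.961), Fstl5 (0.949) and the glycine receptor subunit Glrb (0.948). For Htr7 they were Aak1 (0.969), Epb41l3 (0.955) and Nsf (0.953), and for Htr2b Stra6l (0.874), the endosomal receptor Tlr8 (0.864) and Plbd1 (0.849). Without the uninjured group the values were 0.954, 0.935 and 0.933 for Htr2c, 0.960, 0.943 and 0.940 for Htr7, and 0.856, 0.841 and 0.813 for Htr2b.

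Probe sets of a gene did not always run together. The second Htr2c probe set stood above the 40th percentile in only 2 of 167 arrays and ranged from 5.33 to 6.93. It differed from uninjured cord by -0.18 at the lesion site at intermediate days, by 0.10 in the late rostral piece and by 0.17 in the late caudal piece, where the probe set used here gave -6.47, -0.81 and -0.98. The Htr2c results thus rest on 1 probe set, and averaging both took the late difference to -0.36 rostrally (adjusted p = 0.0497, limma), -0.41 caudally and -3.41 at the lesion site, and the late NT3 minus LC difference there to 1.14. The 2 further Htr7 probe sets and the 3 further Htr2a probe sets were above the percentile in no array. Htr2b, Htr1b and Htr1d were each read by 1 probe set of a single symbol.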

How the data were processed

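Log2 expression values of 31099 probe sets in 167 arrays were used as the authors deposited them, which per the submitters' processing notes came from GCOS, RMA and Affymetrix Expression Console (versions and genome build not given in the sources used here). Of the probe sets, 20826 carry 1 gene symbol, 436 several and 9837 none, 57 control probe sets among the last, and 20758 matched RefSeq by gene ID, with 0 symbols changed. No array correlated with another above 0.997, so none was taken as a repeat.

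Each gene was read from the single-symbol probe set with the highest mean. Genes above the 40th percentile of the array in at least 3 arrays (12040 of 14217) were fitted on group means with limma 3.58.1 in R 4.3.3 (lmFit, contrasts.fit, eBayes, two-sided), with Benjamini-Hochberg adjustment over these genes. Rostral, caudal and lesion site arrays were fitted apart, each with uninjured cord, and rostral with caudal for the sides. The fit was tested on simulated data. The receptors, gene lists and markers were chosen with earlier results of these data known. Genes outside the members were named by rule: up to 3 called genes of a list with the largest difference, every tested gene of the first 2 lists, and the 3 most alike genes. Alternatives were other normalizations, filters, probe set rules, fits, array weights, an actin covariate, a replicate block and leaving out arrays. The number of arrays limits the precision.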

Additional observations from a re-analysis of the deposited data

Results flagged for a closer look

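The difference between empty tube and lesion control rats was tested for being unlike on the 2 sides of the cut, and it passed for Htr2c and, near the threshold, for Htr7. For Htr2c, ET minus LC was -0.28 rostrally and 0.12 caudally, and the difference between the sides was -0.40 (SE 0.11, adjusted p = 0.0074, limma). Over the 11 alternatives run it ranged from -0.43 to -0.21, with adjusted p from 0.000254 to 0.267, and stayed called in 9. For Htr7, ET minus LC was -0.18 rostrally and 0.06 caudally, and the difference between the sides was -0.23 (SE 0.08, adjusted p = 0.0477). Over the 9 alternatives run it ranged from -0.26 to -0.21, with adjusted p from 0.0128 to 0.0866, and stayed called in only 4. It was also lost in 26 of 42 cases of leaving out the arrays of 1 arm, day and number, so the Htr7 call depends on these choices.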

How the results depend on the processing

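No called receptor difference changed direction under an alternative that gave it a value, and the injury differences of Htr2c, Htr2b and Htr7 stayed called there. Not all did: Htr2c had no value with the second highest probe set and Htr7 none with that, the mean of probe sets or the 60th percentile filter, since they then fell under the filter. The second Htr2c probe set, read without a test, differed from uninjured cord by 0.10 in the late rostral and 0.17 in the late caudal piece, the opposite direction. Htr2b has 1 probe set, so the probe set rules leave its values as they are. Adjusted p-values here are limma's. With array weights, called genes were 1455 (main 300) and 2889 (140) for rostral minus caudal LC early and late, 4190 (722) for its change, 325 (51), 3423 (2042), 4296 (2200) and 1237 (647) for the 3 arms early, intermediate, late and in change, 1170 (333) for rostral and 2437 (1175) for caudal NT3 minus LC, 1008 (422) for caudal ET minus LC, 2243 (1009) for caudal NT3 minus ET, and 67 (13), 2329 (1494) and 968 (68) for NT3 minus LC, ET minus LC and NT3 minus ET between sides. It also made calls for Htr2c in the LC side change (0.54, adjusted p = 0.00362), the late side difference (-0.15, 0.0322), the lesion site NT3 minus LC (0.58, 0.0314), NT3 minus ET between sides (0.36, 0.0038) and rostral late minus intermediate (0.12, 0.0177), and for Htr7 in the LC side change (0.45, 0.00642) and caudal NT3 minus LC (0.15, 0.0445), but lost Htr7 in the late side difference (-0.12, 0.0516). The cause was not tested.

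One fit of all arrays called 88, 464, 28 and 13 genes for the LC side early, its change, the 3 arms early and NT3 minus ET between sides. It lost Htr2c in the intermediate side difference (-0.22, adjusted p = 0.328), rostral ET minus LC (-0.28, 0.211), rostral NT3 minus ET (0.35, 0.0869) and ET minus LC between sides (-0.40, 0.267), Htr2b in lesion site NT3 minus LC (0.29, 0.0847) and Htr7 in ET minus LC between sides (-0.23, 0.0761), and called Htr2c in lesion site NT3 minus LC (0.71, 0.000244). The compared groups alone gave 3, 341, 6, 165 and 243 genes for the LC side early and late, the 3 arms early, caudal ET minus LC and NT3 minus ET between sides. They lost Htr2b in the intermediate side difference (0.39, 0.123) and caudal NT3 minus LC (-0.49, 0.0739) and Htr7 in ET minus LC between sides (-0.23, 0.0538), and called Htr2b in the late side difference (0.27, 0.00394) and Htr2c in NT3 minus ET between sides (0.34, 0.0452).

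The mean of probe sets gave 271 genes for caudal ET minus LC and 45 for NT3 minus ET between sides, and lost Htr2c in the intermediate side difference (-0.12, 0.15) and ET minus LC between sides (-0.21, 0.108). The second highest probe set gave 32, 203, 962 and 44 genes for the 3 arms early, caudal ET minus LC, and ET minus LC and NT3 minus ET between sides. The actin covariate gave 91 for the LC side late, 640 for caudal ET minus LC and 4 for NT3 minus LC between sides. Htr7 in ET minus LC between sides was lost without the filter (-0.23, 0.0551) and with 75th percentile scaling (-0.21, 0.0862).

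Days alike in RT1-CE10 gave 58 and 236 genes for rostral and caudal NT3 minus LC, 493 and 1655 for rostral and caudal ET minus LC and 1954 (main 3633) for rostral NT3 minus ET. There Htr2c in rostral ET minus LC (-0.17, 0.245) and late lesion site NT3 minus LC (1.36, 0.162), Htr2b in caudal (-0.65, 0.062) and lesion site NT3 minus LC (0.12, 0.507), and Htr7 in rostral ET minus LC (-0.17, 0.128), rostral NT3 minus ET (0.12, 0.166) and lesion site NT3 minus LC (-0.20, 0.152) were no longer called, with fewer groups compared. Htr2c in rostral NT3 minus ET stayed called.

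The labels do not say whether rostral and caudal arrays with the same arm, day and number came from 1 animal. Their deviations had a median correlation of 0.114, with 32 of 62 pairs over 0.1. Pairs of the same arm and day but another number had a median of -0.013, with 36 of 124 over 0.1. Of 62 arrays, 30 correlated best with their own number. The main tests of the sides did not use the number. With that number as a replicate block, 120 genes were called for NT3 minus ET between sides, and Htr7 passed neither in the late side difference (-0.19, 0.0518) nor in ET minus LC between sides (-0.23, 0.0866).

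Leaving out arrays gave 3 to 627 and 42 to 315 genes for the LC side early and late, 90 to 1199 for its change, 12 to 144 for the 3 arms early, 156 to 750 and 679 to 1672 for rostral and caudal NT3 minus LC, 159 to 1092 for caudal ET minus LC, 593 to 1555 for caudal NT3 minus ET, and 3 to 16 and 11 to 294 for NT3 minus LC and NT3 minus ET between sides. For Htr2c it gave 0.51 to 0.86 in lesion site NT3 minus LC, -0.26 to -0.18 in the intermediate side difference and 0.30 to 0.39 in NT3 minus ET between sides. For Htr2b it gave -0.56 to -0.37 in caudal NT3 minus LC and 0.29 to 0.50 in the intermediate side difference, for Htr7 -0.23 to -0.16 in the late side difference and -0.27 to -0.20 in ET minus LC between sides.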
